A study of Mus musculus with 247 samples.

Results

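The regions described here are the distal JunB peaks that were shared with PU.1 in mouse macrophages. A JunB peak was a member when its centre lay more than 1000 bp from the nearest transcription start site (TSS) and when it shared at least 1 bp with a PU.1 peak. Of the 58888 JunB peaks, 18580 were members (31.6% of all JunB peaks and 36.4% of the 51011 distal ones), and 18543 of the 52093 PU.1 peaks overlapped them. These PU.1 peaks are called partners below. Of the members, 18573 had 1 partner and 7 had 2.

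All samples came from RAW264.7, a macrophage-like mouse cell line, with the strain given as BALB/c. Chromatin immunoprecipitation with sequencing (ChIP-seq) for JunB and for PU.1 covered 4 groups with 2 libraries each: wild-type (WT) cells and cells with a CRISPR knockout of GPS2 (KO), each left untreated or given lipopolysaccharide (LPS) for 2 hours at a dose the labels do not state. MED1 and RNA polymerase II ChIP-seq were used in WT and KO cells with LPS (2 libraries per group), ATAC-seq in untreated cells (3 KO and 3 control libraries from triplicate wells), and RNA-seq in the same 4 groups (4 libraries each, LPS for 6 hours at 10 ng per ml). Whether the KO cells were a single clone was not given in the sources used here. The series asks how the corepressors GPS2 and SMRT bear on enhancers during inflammatory activation, and the comparisons below follow JunB and PU.1 at shared distal sites across those groups.

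JunB is a member of the AP-1 family, basic leucine zipper proteins that bind DNA as dimers at the sequence TGANTCA. Its gene is switched on early by LPS, and AP-1 proteins carry the signal of Toll-like receptors and MAP kinases to enhancers of inflammatory genes. PU.1, encoded by Spi1, is an ETS-family factor that opens macrophage enhancers and binds sites with the core GGAAGT, and AP-1 factors often occupy the same enhancers. GPS2 is a subunit of the NCoR and SMRT corepressor complex and is known as a restraint on inflammatory genes in macrophages. LPS is a cell wall component of Gram-negative bacteria that Toll-like receptor 4 detects. MED1 is a Mediator subunit used as a mark of active enhancers, and ATAC-seq reads out open chromatin.

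Sequences of 10 members on which the results turn follow, each as the bases within 100 bp of the JunB peak centre on the plus strand of build mm9. In the first 9, capitals mark matches to TGANTCA or to GGAAGT on either strand. Each site is named by its nearest gene and by the signed distance to that gene's TSS, as the deposited table annotates it. The Rybp, Olfm3 and Il1b sites stand for members with more JunB or PU.1 in KO cells, the 1110008P14Rik, Adcyap1, Irf1 and Cd36 sites for members with less, and the Rab44 and Nfkb1 sites for members where JunB was near 0 before LPS.
Rybp -115409 (chr6:100352661-100352861): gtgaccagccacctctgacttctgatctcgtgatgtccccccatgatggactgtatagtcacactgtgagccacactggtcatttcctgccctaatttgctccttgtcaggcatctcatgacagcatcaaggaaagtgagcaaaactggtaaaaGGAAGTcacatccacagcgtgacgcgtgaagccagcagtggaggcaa
Olfm3 +95468 (chr3:114879251-114879451): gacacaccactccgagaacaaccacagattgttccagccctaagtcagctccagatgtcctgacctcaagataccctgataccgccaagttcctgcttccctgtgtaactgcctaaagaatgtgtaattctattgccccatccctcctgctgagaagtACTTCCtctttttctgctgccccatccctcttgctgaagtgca
Il1b -2381 (chr2:129199156-129199356): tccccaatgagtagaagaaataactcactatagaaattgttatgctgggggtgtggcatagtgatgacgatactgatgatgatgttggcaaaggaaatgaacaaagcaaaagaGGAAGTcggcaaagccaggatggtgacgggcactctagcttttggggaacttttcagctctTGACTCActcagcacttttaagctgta
1110008P14Rik +1643 (chr2:32235692-32235892): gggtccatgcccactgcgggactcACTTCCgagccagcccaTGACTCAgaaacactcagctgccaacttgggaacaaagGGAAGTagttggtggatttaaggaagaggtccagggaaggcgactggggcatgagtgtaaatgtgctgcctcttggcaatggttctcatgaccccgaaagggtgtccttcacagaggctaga
Adcyap1 +181003 (chr17:93779411-93779611): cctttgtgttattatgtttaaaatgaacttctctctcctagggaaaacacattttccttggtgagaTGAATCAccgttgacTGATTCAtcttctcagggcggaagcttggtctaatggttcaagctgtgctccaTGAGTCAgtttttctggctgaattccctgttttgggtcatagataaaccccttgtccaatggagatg
Irf1 +4440 (chr11:53588315-53588515): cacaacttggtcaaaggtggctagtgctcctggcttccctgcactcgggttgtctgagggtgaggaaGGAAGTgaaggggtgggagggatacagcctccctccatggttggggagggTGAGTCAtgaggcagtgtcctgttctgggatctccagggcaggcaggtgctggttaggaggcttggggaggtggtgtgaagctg
Cd36 +8881 (chr5:17385796-17385996): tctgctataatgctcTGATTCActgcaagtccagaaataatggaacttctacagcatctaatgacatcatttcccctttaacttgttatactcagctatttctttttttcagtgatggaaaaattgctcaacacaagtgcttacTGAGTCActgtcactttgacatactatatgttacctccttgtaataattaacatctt
Rab44 +54945 (chr17:29305971-29306171): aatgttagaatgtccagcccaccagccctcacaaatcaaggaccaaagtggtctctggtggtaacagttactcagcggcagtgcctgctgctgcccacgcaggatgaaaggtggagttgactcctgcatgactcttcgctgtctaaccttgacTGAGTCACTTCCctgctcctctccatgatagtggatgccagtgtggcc
Nfkb1 +20805 (chr3:135333606-135333806): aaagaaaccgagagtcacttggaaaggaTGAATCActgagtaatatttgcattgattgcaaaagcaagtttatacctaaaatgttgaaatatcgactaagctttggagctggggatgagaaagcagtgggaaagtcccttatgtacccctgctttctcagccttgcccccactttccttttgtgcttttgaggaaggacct
The last sequence, at −2265 bp from the TSS of Prss56 at chr1:89077524-89077724, shows a single fused match in which the AP-1 and PU.1 letters share a base, and its capitals mark that fused match.
Prss56 -2265 (chr1:89077524-89077724): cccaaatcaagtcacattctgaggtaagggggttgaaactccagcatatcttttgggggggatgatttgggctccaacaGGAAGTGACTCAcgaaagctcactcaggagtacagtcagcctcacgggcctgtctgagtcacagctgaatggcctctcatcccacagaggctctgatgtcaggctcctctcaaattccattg

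The labels were checked before the comparisons. Gps2 RNA lay between 492 and 548 reads per 10M in the 4 untreated WT libraries and between 145 and 154 in the 4 untreated KO libraries, and between 371 and 399 against 66.3 and 84.9 with LPS. RNA of 7 of 7 macrophage markers was present, with a summed level of 77080 to 122700 reads per 10M, and of the markers of lymphocytes, fibroblasts and epithelium only Cd79a and Col1a1 were in the table, at no more than 1.1. JunB libraries held 8.65M to 16M mapped reads (M, 1e6) and PU.1 libraries 8.10M to 10.4M. The 2 libraries of each JunB or PU.1 group differed by about as much as sampling noise (chi-square per peak of 0.823 to 1.16 for JunB and 0.877 to 0.940 for PU.1). Only JunB in untreated KO, at 1.16, was somewhat above it. The 2 libraries of a group may thus be technical repeats, and no standard deviation is given for ChIP-seq values. The tests nevertheless entered each library as a separate observation. Their standard errors and p-values therefore measure the spread between these libraries, near sampling noise, and not between independently grown cells. In RNA-seq the fourth WT library with LPS stood apart from the other 3 of its group over all genes (chi-square per gene of 98.6 to 138 in its pairs and 5.21 to 9.51 among the others), so RNA values in WT with LPS are also given without it. The 2 factors were themselves lower in KO RNA: Junb RNA was 1149 ± 83.4 (SD, n = 4) in untreated WT, 9318 ± 1975 in WT with LPS, 640.5 ± 72.1 in untreated KO and 4859 ± 246 in KO with LPS, and Spi1 RNA was 3230 ± 164, 6042 ± 717, 2075 ± 51.6 and 4161 ± 78.1 in the same order. The log2 difference of KO from WT was −0.85 untreated (adjusted p = 4.06e-05, limma) and −0.92 with LPS (adjusted p = 1.55e-05) for Junb, and −0.64 (adjusted p = 2.11e-06) and −0.53 (adjusted p = 1.39e-05) for Spi1. Without the fourth library WT with LPS had 8422 ± 1017 (SD, n = 3) for Junb and 5689 ± 150 for Spi1, and the differences with LPS were −0.78 (adjusted p = 1.38e-06, limma) and −0.45 (adjusted p = 2.62e-10). Whether the lower RNA of these factors has a part in the binding values was not tested.

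Members sat in open, Mediator-bearing chromatin more often than other distal JunB peaks did. An ATAC-seq peak overlapped 91.7% of members and 47.9% of the 32431 distal JunB peaks without PU.1, a MED1 peak 60.2% against 29.6%, and a polymerase II peak 41.0% against 17.4%. Of the members, 50.0% were annotated to introns and 45.5% as intergenic, and their median distance to a TSS was 21140 bp. Their median width was 339 bp, the median stretch shared with PU.1 was 247 bp, and the centres of the JunB and PU.1 peaks lay a median of 45 bp apart. JunB had been called as a peak in all 8 libraries at 5998 members (32.3%, against 9.80% of distal peaks without PU.1), and in the 4 LPS libraries but no untreated one at 3757 (20.2% against 55.8%). The genes with the most members were Maf with 25, Lpp with 19, Runx1 with 19 and Klf4 with 18. Maf, Runx1 and Klf4 encode transcription factors of the macrophage lineage.

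JunB signal at members rose several-fold with LPS in both genotypes, while PU.1 signal at the same places fell, when libraries are compared per mapped read. The median JunB signal over members, in reads per 10M mapped reads, was 12.5 and 13.1 in the 2 untreated WT libraries, 48.2 and 47.4 in WT with LPS, 10.0 and 10.4 in untreated KO, and 41.2 and 39.5 in KO with LPS. Every LPS library was above every untreated one. Members took 3.37% and 3.69% of all mapped reads in untreated WT, 12.8% and 13% in WT with LPS, 2.63% and 2.66% in untreated KO, and 11.2% and 10.7% in KO with LPS. The median PU.1 signal over partners was 41.6 and 41.4 in untreated WT, 28.4 and 27.2 in untreated KO, 29.5 and 29.1 in WT with LPS, and 22.2 and 21.2 in KO with LPS. For PU.1 the untreated WT libraries were highest and the KO libraries with LPS lowest.

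**Figure D1:**
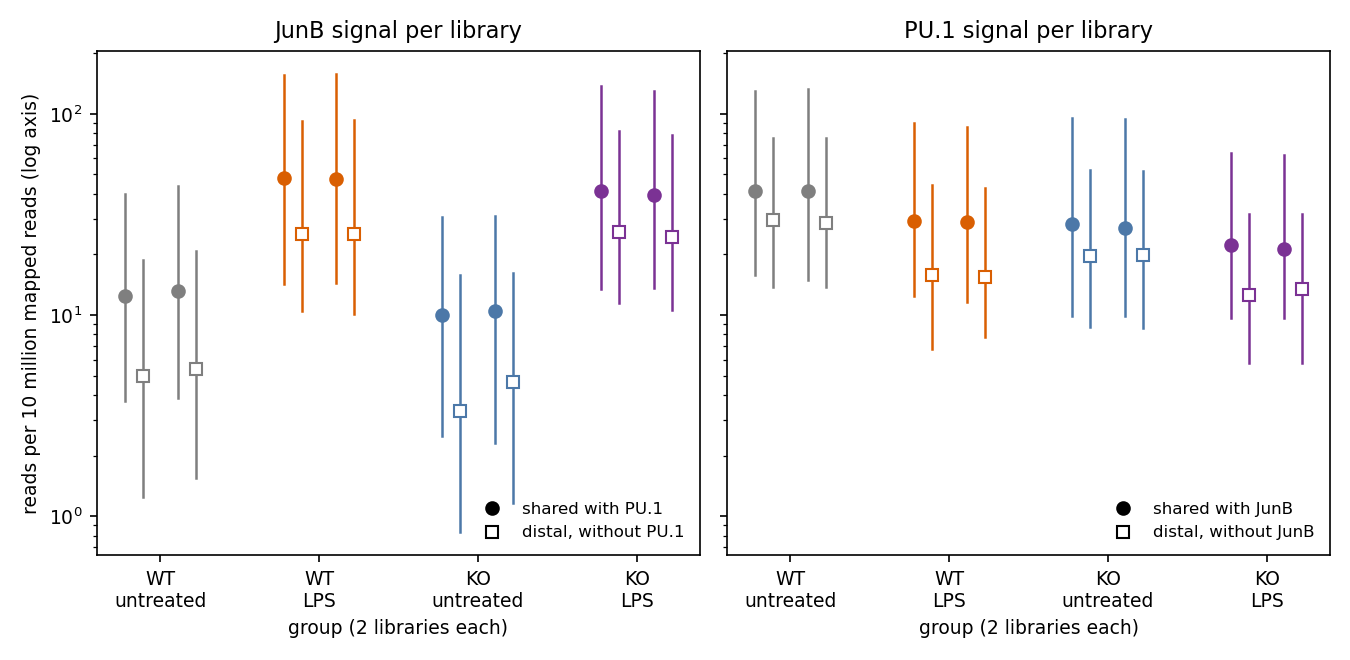
Median JunB signal (left) and PU.1 signal (right) per library in the 4 groups, in reads per 10M mapped reads on a log axis, with filled circles for shared sites and open squares for distal peaks of the other kind, and lines from the 10th to the 90th percentile of sites. JunB medians at shared sites sit near 10.0 to 13.1 in untreated cells and 39.5 to 48.2 with LPS, whereas PU.1 medians go from 41.6 in untreated WT down to 21.2 in KO with LPS.

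Such shifts over a whole table can come from the cells or from the yield of a precipitation, and without a spike-in the choices cannot be told apart. Every test was therefore made on 2 scales. TMM scaling (trimmed mean of M values) centres the libraries on the bulk of the peaks and so asks which sites moved more or less than most, and library totals leave the values per mapped read. The median JunB change with LPS in WT over all 58810 peaks tested was 0.03 (log2) under TMM scaling and 1.91 under library totals, and the median PU.1 change in untreated KO over all 52009 peaks was −0.01 and −0.54. A site was called when its adjusted p was under 0.05 (limma with precision weights, Benjamini-Hochberg over all peaks of the table). Of the members, 18567 passed the filter on low values, as did 18526 of the partners.

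With LPS in WT cells, JunB rose at nearly all members per mapped read, but at members it rose less than at other distal JunB peaks. The contrast is in part built in by peak calling. Of distal JunB peaks without PU.1, 55.8% had been called in the 4 LPS libraries and no untreated one, against 20.2% of members. So the contrast in part uses the signal that put those peaks in the table. Under library totals JunB was higher at 17591 members and lower at 9 (background over all JunB peaks: 94.9% higher and 0.0323% lower), with a median log2 change of 1.75 at members and 2.13 at distal peaks without PU.1. Under TMM scaling it was higher at 2504 members (13.5%, background 17.6%) and lower at 5271 (28.4%, background 19.6%), with a median of −0.18, against 22.3% higher and 12.6% lower and a median of 0.30 at distal peaks without PU.1. In KO cells the TMM counts at members were 2096 higher (11.3%, background 18.1%) and 3849 lower (20.7%, background 18.5%), and under library totals 17633 higher and 7 lower (background 92.0% and 0.238%). Leaving out the first untreated WT library gave 1126 members higher and 3197 lower in WT under TMM scaling, leaving out the second gave 1245 and 3356, and leaving out the first untreated KO library gave 1295 higher and 2265 lower in KO. The WT and KO responses rest on separate libraries. Of the members that rose under TMM scaling, 1203 rose in both genotypes, which is 48.0% of those in WT and 57.4% of those in KO, and of those that fell 2336 fell in both (44.3% and 60.7%).

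PU.1 at partners moved the other way relative to other PU.1 peaks. Under TMM scaling it was higher with LPS in WT at 3807 partners (20.5%, background 10.9%) and lower at 711 (3.84%, background 7.45%), with a median log2 change of 0.18, while distal PU.1 peaks without JunB had 1348 higher, 2667 lower and a median of −0.13. In KO cells 3296 partners were higher (17.8%, background 10.8%) and 1252 lower (6.76%, background 8.14%). Of the partners higher in WT, 1499 were also higher in KO, which is 39.4% of the WT set and 45.5% of the KO set. Per mapped read, lower calls outnumbered higher ones: 536 partners were higher and 9774 (52.8%) lower in WT (background 1.32% and 59.4%), and 860 higher and 6803 (36.7%) lower in KO (background 2.97% and 39.0%). The median under library totals was −0.51 at partners and −0.81 at distal PU.1 peaks without JunB, a smaller fall at partners. Leaving out the first untreated WT library gave 1966 partners higher in WT under TMM scaling, and leaving out the first or the second WT library with LPS gave 2513 or 2385 higher and 321 or 230 lower. In KO the counts were 1533 or 1792 higher without the first or the second untreated KO library. They were 823 lower without the first untreated KO library and 603 or 571 lower without the first or the second KO library with LPS.

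Single sites were named by a rule that took the largest changes among called members with a mean signal of at least 50 and groups that did not overlap, and the strongest member of each listed gene. The members so named for a JunB gain with LPS began near 0. At the Rab44 site, in an intron of a gene for a Rab-family GTPase, JunB signal was 0 and 4.63 in untreated WT, 117 and 130 in WT with LPS, 1.67 and 5.78 in untreated KO, and 115 and 94.1 in KO with LPS. Untreated and LPS libraries did not overlap in either genotype, while untreated KO and WT libraries overlapped each other. The fitted log2 gain in WT was 4.23 ± 0.69 (SE, adjusted p = 1.14e-06) under TMM scaling, which depends on the value added before the logarithm because 1 library was at 0. PU.1 at that site stayed between 6.18 and 14.9 in all 8 libraries. The Mapk13 site, at −17341 bp from the TSS of a gene for a p38-family kinase, had JunB at 2.5 and 5.40 in untreated WT, 171 and 187 in WT with LPS, 1.67 and 3.47 in untreated KO, and 166 and 158 in KO with LPS. Its PU.1 signal went from 4.95 and 5.75 to 32.9 and 28.2 in WT and from 2.19 and 2.47 to 13.5 and 17.3 in KO. So this member gained both factors, with a JunB log2 change in WT of 3.41 ± 0.41 (adjusted p = 4.82e-10) and a PU.1 change of 2.90 ± 0.52 (adjusted p = 1.48e-06).

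The intronic Nfkb1 site, in the gene for the p105 and p50 subunit of NF-kB, had JunB at 3.75 and 3.86 in untreated WT, 104 and 116 in WT with LPS, 1.67 and 0 in untreated KO, and 111 and 96.4 in KO with LPS. PU.1 there rose from 4.95 and 2.30 to 17 and 18.4 in WT (log2 2.61 ± 0.65, adjusted p = 0.00118). The Flrt3 site held JunB at 2.5 and 0.770 in untreated WT and 124 and 123 with LPS, and PU.1 at 8.91 and 9.20 and then 85.1 and 73.8, the largest PU.1 values among the 4 gained members described here. In the other direction, PU.1 at the Sec61b site fell from 119 and 117 in untreated WT to 21.6 and 23.3 with LPS, a log2 change of −1.64 ± 0.22 (adjusted p = 1.49e-11) that was −2.34 per mapped read. PU.1 at the Cd6 site, in an intron of a lymphocyte surface receptor gene, fell from 97.0 and 86.2 to 27.2 and 19.4 in WT and from 65.6 and 70.4 to 19.3 and 22.1 in KO. JunB lay between 6.87 and 14.2 in all 8 libraries at the Cd6 site and between 2.5 and 11.4 at the Sec61b site.

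Without LPS, few members were called as different between KO and WT in JunB once the libraries were centred. JunB signal was several-fold lower in untreated libraries than with LPS, so these tests had fewer reads and less power. Under TMM scaling JunB was higher in KO at 426 members (2.29%, background 5.97%) and lower at 729 (3.93%, background 2.83%), with a median log2 difference of −0.14. Of the 3512 higher calls in the whole table, 2444 were at JunB peaks within 1000 bp of a TSS, whose median was 0.73. Under library totals 150 members were higher and 2542 lower (background 3.0% and 7.98%). PU.1 was higher at 1079 partners (5.82%, background 4.65%) and lower at 628 (3.39%, background 3.18%), with a median of 0.00. Per mapped read 101 partners were higher and 9696 lower (background 0.521% and 46.2%). These counts moved with single libraries. JunB was higher at 60 members without either untreated WT library and at 689 without the second untreated KO library, and it was lower at 204 or 157 without the first or the second untreated WT library. PU.1 was higher at 455 or 682 partners without the first or the second untreated WT library and at 614 or 634 without the first or the second untreated KO library. It was lower at 373 or 418 and at 152 or 154 in the same order.

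The member named first for a JunB loss in untreated KO lay 181003 bp from the TSS of Adcyap1, a neuropeptide gene, and its sequence held 3 TGANTCA matches. JunB was 48.7 and 57.1 in untreated WT and 4.17 and 9.25 in untreated KO, and 130 and 130 against 41.2 and 46.3 with LPS. The groups did not overlap in either state, with log2 differences of −2.76 ± 0.39 (adjusted p = 1.67e-06) untreated and −1.38 ± 0.15 (adjusted p = 1.52e-11) with LPS. PU.1 at the same place was 43.5 and 39.1 in untreated WT and 5.46 and 3.71 in untreated KO (log2 −2.38 ± 0.58, adjusted p = 0.00228), and ATAC-seq signal was lower by 0.56 on the log2 scale (adjusted p = 4.55e-10). At the Cx3cr1 site, 13225 bp into the gene for the fractalkine receptor, JunB was instead higher in untreated KO, at 27.5 and 32.4 against 11.3 and 8.49 (log2 1.83 ± 0.30, adjusted p = 5.05e-05). With LPS the same site held 126 and 121 in WT and 98.6 and 104 in KO, a difference that did not pass (adjusted p = 0.345). PU.1 there was 94.0 and 66.7 in untreated WT and 56.8 and 64.2 in untreated KO. Cx3cr1 RNA was 5427 ± 254 (SD, n = 4) in untreated WT and 4827 ± 28.4 in untreated KO.

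With LPS, JunB differed between KO and WT at 5644 members under TMM scaling, more of them lower than higher. It was lower in KO at 3659 (19.7%, background 13.8%) and higher at 1985 (10.7%, background 13.1%), with a median log2 difference of −0.08, while distal JunB peaks without PU.1 had 3923 lower (12.1%), 5279 higher (16.3%) and a median of 0.06. Under library totals 6480 members were lower and 1373 higher (background 25.1% and 10.3%). For PU.1 the counts were 733 higher (3.96%, background 4.89%) and 810 lower (4.37%, background 3.89%), and per mapped read 183 higher and 6181 lower (background 1.89% and 25.3%). Lower calls outnumbered higher calls at members on both scales for JunB. Leaving out the first WT library with LPS gave 1176 members higher for JunB, and leaving out the second KO library with LPS gave 1909 lower. For PU.1 the counts were 287 or 186 higher and 477 or 427 lower without the first or the second WT library with LPS, and 462 or 416 higher and 279 or 233 lower without the first or the second KO library with LPS.

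**Figure D2:**
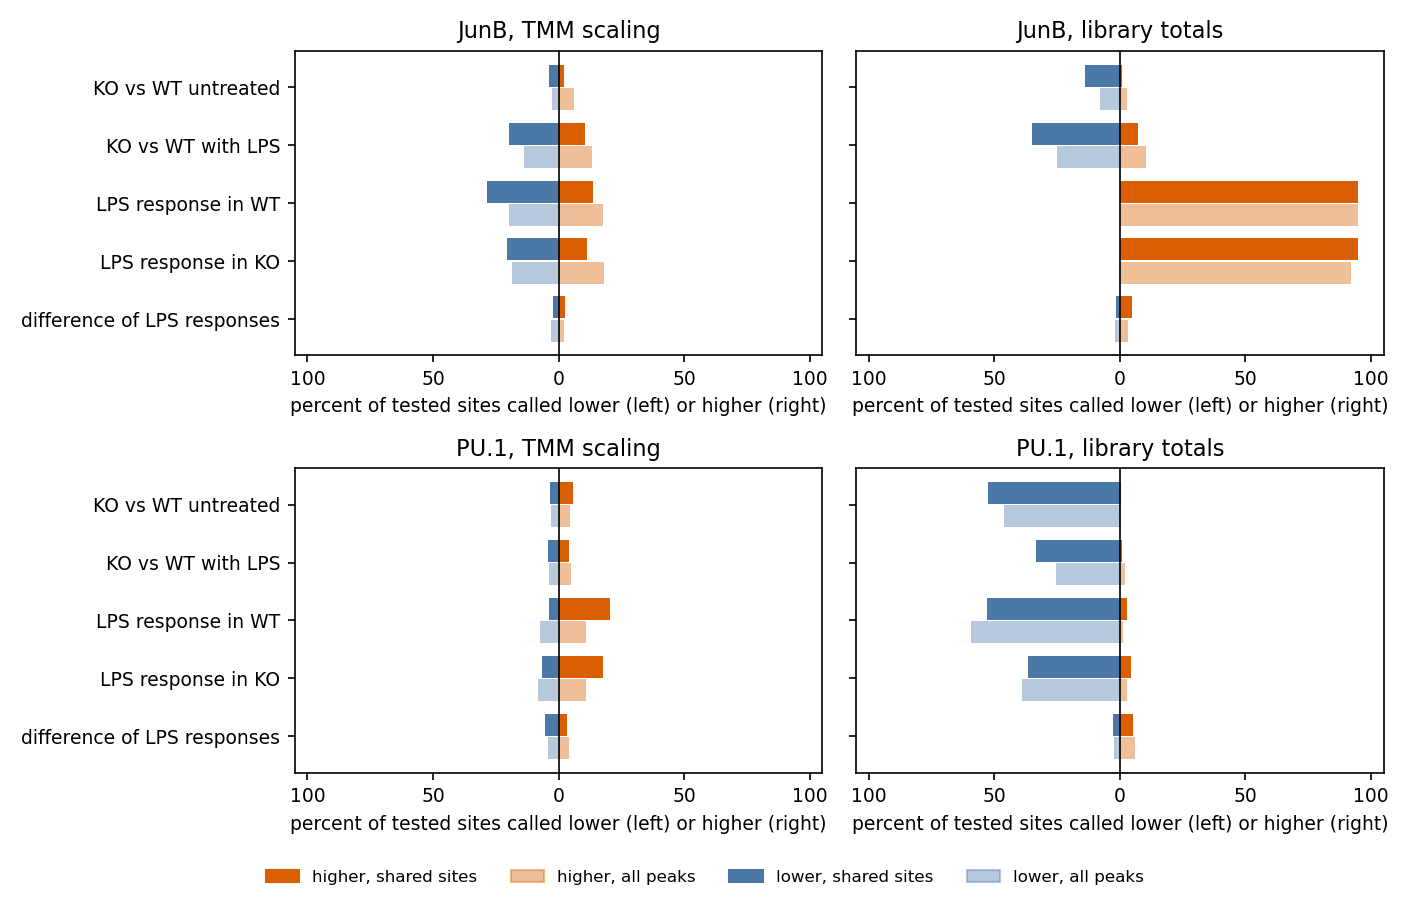
Percent of tested sites called lower (left of 0) or higher (right of 0) in each comparison, for JunB and PU.1 under TMM scaling and library totals, with dark bars for shared sites and pale bars for all peaks of the table. With LPS in WT cells 28.4% of shared JunB sites are lower and 13.5% higher under TMM scaling, and 94.7% are higher under library totals.

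The member named first for a JunB gain in KO with LPS lay at chr6:100352592-100352930, at −115409 bp from the TSS of Rybp, a gene for a Polycomb-associated protein, in a copy of an LTR element. JunB was 7.50 and 4.63 in untreated WT, 54.6 and 60.1 in WT with LPS, 15.0 and 10.4 in untreated KO, and 182 and 178 in KO with LPS. KO was above WT in both states, with a log2 difference of 1.77 ± 0.12 with LPS (adjusted p = 1.49e-19). PU.1 was 11.3 and 6.79 in WT with LPS and 20.2 and 15.4 in KO (log2 1.36, adjusted p = 0.0199), MED1 was higher by 1.83 (adjusted p = 7.53e-08) and untreated ATAC-seq signal by 0.43 (adjusted p = 3.00e-08). Rybp RNA was 216 ± 77.6 (SD, n = 4) in WT with LPS and 672 ± 36.3 in KO with LPS (log2 1.73, adjusted p = 9.99e-06). Without the fourth WT library, which held 102, the WT mean was 254 ± 20.0 (SD, n = 3) and the log2 difference 1.41 (adjusted p = 1.79e-15, limma). All of the JunB, PU.1, MED1, ATAC-seq and RNA values at Rybp were thus higher in KO. At the Gm35722 site JunB was 52.3 and 60.9 in WT with LPS and 167 and 146 in KO with LPS (log2 1.57 ± 0.12, adjusted p = 1.64e-16), and PU.1 was 97.5 and 104 against 142 and 125 (log2 0.81, adjusted p = 7.19e-10).

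The first named JunB loss in KO with LPS was at chr2:32235611-32235973, in an intron of 1110008P14Rik, with 151 and 156 in WT and 47.9 and 55.4 in KO (log2 −1.38 ± 0.13, adjusted p = 5.74e-13). In untreated cells the same site held 23.1 and 27 in WT and 20.0 and 13.9 in KO, which did not pass (adjusted p = 0.653). PU.1 was 53.3 and 39.8 in WT with LPS and 22.2 and 27 in KO, below WT in both libraries but without a call under TMM scaling. RNA of 1110008P14Rik was 181 ± 49.4 (SD, n = 4) in WT with LPS and 123 ± 16.6 in KO with LPS (log2 −0.52, adjusted p = 0.00676). Without the fourth WT library, at 254, the WT mean was 156 ± 9.11 (SD, n = 3) and the difference −0.34 (adjusted p = 0.00143, limma). The first named PU.1 gain was at the Olfm3 site, an intergenic LTR copy with 1 GGAAGT match, where it was 70.3 and 90.3 in WT with LPS and 169 and 169 in KO (log2 1.48 ± 0.12, adjusted p = 7.84e-32). In untreated cells PU.1 there was 152 and 149 in WT and 157 and 136 in KO, so the LPS-treated WT libraries were the low ones. JunB at Olfm3 was 13.5 and 9.31 in WT and 30.6 and 42.5 in KO (log2 1.67 ± 0.29, adjusted p = 6.53e-06). The first named PU.1 loss was at the H3f3a site, where it went from 112 and 105 in WT to 28.9 and 32.7 in KO with LPS (log2 −1.38 ± 0.18, adjusted p = 1.25e-10). JunB at the H3f3a site was at 14.2 or below in every library.

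The LPS response itself was called as different between the genotypes at few members. JunB signal was low in untreated libraries, so JunB tests that use them have larger standard errors. At the Prss56 site the JunB standard error was 0.117 for KO against WT untreated, 0.0432 with LPS and 0.125 for the difference of responses. The test of the difference called 494 members with a larger JunB response in KO (2.66%, background 2.26%) and 407 with a smaller one (2.19%, background 3.17%) under TMM scaling, and 879 and 267 under library totals (background 3.2% and 2.04%). For PU.1 it called 594 partners with a larger response in KO (3.21%, background 4.21%) and 973 with a smaller one (5.25%, background 4.06%), and 976 and 485 under library totals (background 6.1% and 2.14%). For JunB, leaving out the first or the second untreated WT library gave 99 or 74 larger and 41 or 44 smaller responses, and leaving out the second untreated KO library gave 724 smaller. Without the first or the second KO library with LPS they were 298 or 322 larger and 240 or 215 smaller, and without the first WT library with LPS 310 were larger. For PU.1 the larger responses were 304 or 313 without the first or the second untreated KO library and 360 or 301 without the first or the second WT library with LPS. The smaller ones were 619 without the first untreated WT library and 561 or 530 without the first or the second KO library with LPS. At the Zc3h3 site JunB went from 11.3 and 7.72 to 127 and 136 in WT but from 20.0 and 12.7 to 53.6 and 43.2 in KO. At the Tnc site, in an intron of the tenascin C gene, it went from 10.6 and 12.4 to 78.5 and 71.1 in WT and from 2.5 and 2.31 to 109 and 114 in KO.

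Between KO and WT cells, JunB and PU.1 calls at the same member were far more often in the same direction than in opposite directions under TMM scaling. Of 1982 members with more JunB in KO with LPS and a tested partner, PU.1 was higher at 401 and lower at 1. Of 3656 with less JunB, PU.1 was lower at 483 and higher at 4. Under library totals the counts were 135 and 32 of 1370 with more JunB and 3492 and 0 of 6474 with less. Over 18550 members the log2 differences of the 2 factors had the same sign at 12759 (68.8%), with Pearson's r of 0.59 and Spearman's rho of 0.55, given as a description across sites that share the same 8 libraries and the same region lengths. Medians over members also differed by chromosome. Those of JunB and PU.1 were −0.16 and −0.10 on chromosome 15, −0.17 and −0.11 on chromosome 18, and −0.17 and −0.10 on chromosome 19. On chromosome 1 they were −0.04 and 0.03. Whether such shifts have a part in the shared direction was not tested. Without LPS the relation between JunB and PU.1 differences was looser, with r of 0.22. JunB signal was lower in those libraries, and whether this has a part in the lower r was not tested. Of 426 members with more JunB in KO, PU.1 was higher at 103 and lower at 5, and of 728 with less JunB it was lower at 76 and higher at 18. Under library totals PU.1 was instead higher at 25 and lower at 32 of 150 members with more JunB. It was higher at 0 and lower at 1719 of 2541 with less. For the LPS response r was 0.55 in WT and 0.40 in KO. Of 2499 members whose JunB rose in WT under TMM scaling, PU.1 was higher at 1409 (56.4%) and lower at 4, but of 5268 whose JunB fell PU.1 was higher at 433 and lower at 450. Under library totals JunB rose with LPS at nearly all members. Of the 17575 members whose JunB rose in WT, PU.1 was lower at 9016 (51.3%) and higher at 536. Over all 18550 members it was lower at 9793 and higher at 537. In KO it was lower at 6289 (35.7%) and higher at 854 of 17618, and lower at 6816 and higher at 860 of all 18550. These counts thus largely restate the opposite shifts of the factors over all members per mapped read. The log2 changes of the 2 factors were still related across members on that scale, with r of 0.56 in WT and 0.42 in KO.

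**Figure D3:**
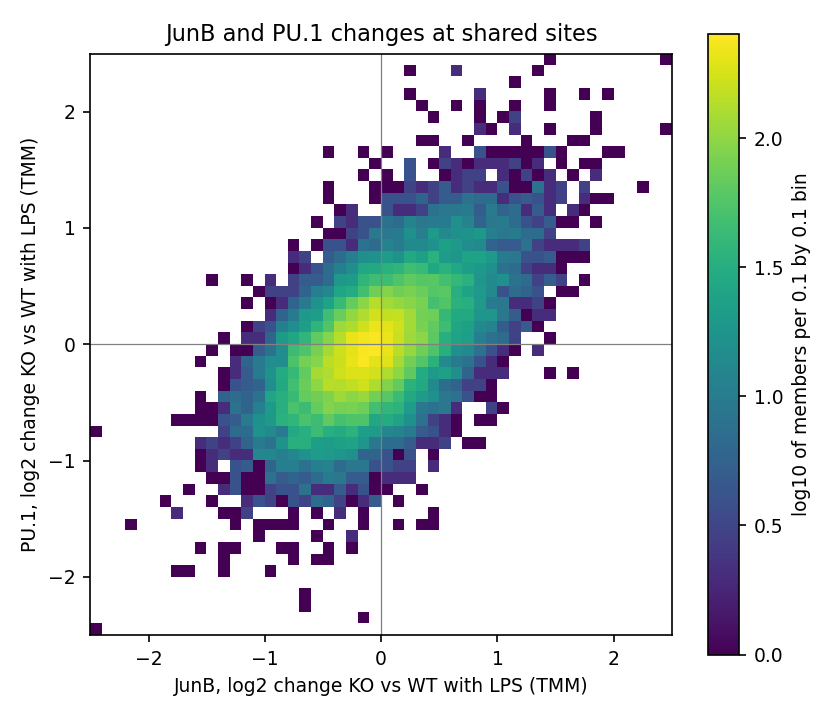
Log2 difference of KO from WT with LPS for JunB (horizontal) and PU.1 (vertical) under TMM scaling at 18550 shared sites, as the log10 number of sites per bin of 0.1 by 0.1, with the 5 sites beyond 2.5 drawn at the edge. The cloud leans from lower left to upper right, with the same sign for both factors at 68.8% of sites.

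Relative to most regions, MED1 in KO with LPS and ATAC-seq signal in untreated KO were called more often in the direction of the JunB call at the same members than in the opposite direction. MED1 regions over members were higher in KO with LPS at 628 of 10068 (6.24%, background 5.01%) and lower at 239 (2.37%, background 2.0%) under TMM scaling, and 55 higher and 6820 lower per mapped read (background 0.61% and 67.2%). At members with more JunB in KO with LPS, MED1 was higher at 242 of 858 and lower at 1, with a median log2 difference of 0.55. At members with less JunB it was higher at 75 and lower at 161 of 2888, with a median of −0.16. This split depends on the scale: under library totals MED1 was higher at 38 and lower at 48 of 440 members with more JunB (median 0.02), and higher at 0 and lower at 4256 of 5056 with less (median −0.85). At members with more PU.1 it was higher at 78 of 251 and lower at 1. Polymerase II regions over members were higher at 1749 of 6600 (26.5%, background 23.3%) and lower at 1303 (19.7%, background 21%) under TMM scaling, and 192 higher and 5959 lower per mapped read (background 2.76% and 90.2%). At members with more JunB they were higher at 148 and lower at 25 of 383, whereas at members with less JunB they were higher at 510 and lower at 412 of 1798. Under library totals polymerase II was instead higher at 14 and lower at 132 of 163 members with more JunB (median −1.52), and higher at 101 and lower at 3016 of 3350 with less (median −1.75). ATAC-seq peaks over members in untreated cells were higher in KO at 939 of 16292 (5.76%, background 4.04%) and lower at 534 (3.28%, background 3.16%). At members with more JunB in untreated KO, ATAC-seq signal was higher at 101 and lower at 8 of 419, and at those with less JunB it was higher at 6 and lower at 68 of 692. Leaving out the first or the second WT library with LPS gave MED1 counts of 311 or 321 higher and 115 or 132 lower. Leaving out the first or the third control library gave ATAC-seq counts of 590 or 594 higher and 326 or 318 lower, and leaving out the second KO library gave 346 lower. A MED1 or polymerase II region can be wide and span several members, so members under 1 region share its value.

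Members differed among themselves by their setting, and levels differed with it. The 11186 members over MED1 had a median JunB signal of 44.3 over the 8 libraries and the 7394 without MED1 15.7, and higher signal gives a test more reads. In KO with LPS, JunB was lower at 26% and higher at 7.91% of members over MED1, and lower at 10.2% and higher at 14.9% of members without MED1. Members up to 10000 bp from a TSS were lower at 21.4% and higher at 6.54%, and members beyond 50000 bp were lower at 18.4% and higher at 16.2%. With LPS in WT under TMM scaling, JunB was lower at 45.2% and higher at 11.8% of the members called as a peak in all 8 libraries. It was higher at 20.1% and lower at 2.19% of the members called only in the 4 LPS libraries, a split that uses the same signal. Values changed little across the limits of the membership rule. Members within 500 bp beyond the 1000 bp limit (n = 488) had a median JunB signal of 42.3 in WT with LPS, and PU.1-sharing JunB peaks within 500 bp inside it (n = 615) 33.9. Members sharing 1 to 50 bp with PU.1 (n = 375) had 48.7, and distal JunB peaks 1 to 50 bp away from a PU.1 peak (n = 366) 41.3.

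The DNA of members held PU.1 letters more often and AP-1 letters less often than that of other distal JunB peaks. Within 100 bp of the JunB centre, on both strands, TGANTCA occurred at 40.7% of 18564 members, 66.1% of distal JunB peaks without PU.1 and 52.4% of all JunB peaks. GGAAGT occurred at 51.2% of members, 18.8% of distal peaks without PU.1 and 29.9% of all, and the longer GAGGAAGT, which contains it, at 16.5%, 2.42% and 7.09%. TTGCNNAA of C/EBP factors was found at 12.7% of members, against 11.97% of distal JunB peaks without PU.1. In the same order, the NF-kB motif was at 11.5% against 9.57%, and TGTGGT of RUNX factors at 20.0% against 20.49%. The motif of interferon regulatory factors was at 3.11% against 2.42%, and TGACGTCA, the cAMP response element, at 0.851% against 1.12%. In percentage points, these shares lay closer together between the sets than those of TGANTCA and GGAAGT. At members 51.8% of 8619 TGANTCA matches lay within 25 bp of the JunB centre. A match is a run of letters and not a shown binding site.

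TGANTCA matches followed the sites where JunB was lower in untreated KO. They were present at 71.8% of the 728 members with less JunB, at 39.9% of the 17398 without a call, and at 20.9% of the 425 with more. GGAAGT was present at 46.4%, 51.6% and 44.5% of the same groups. Median GC content was 46.8%, 48.8% and 54.2% in the same order. JunB was lower in untreated KO at 7.48% of the 4130 members with TGANTCA alone, 6.25% of the 3429 with both, 2.04% of the 6082 with GGAAGT alone and 1.65% of the 4923 with neither. Among the 968 members with 2 or more TGANTCA matches it was 17.5%, and their median JunB signal was 83.2 against 47.6 for TGANTCA alone and 19.8 for GGAAGT alone. The members with higher PU.1 in untreated KO held GGAAGT at 67.7% of 1080 and TGANTCA at 25.3%, against 50.2% and 41.9% of the 16839 without a call. The sequences of the Adcyap1 and Cd36 sites, with 3 and 2 TGANTCA matches, are among those with less JunB in untreated KO.

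Where both matches were present, their centres lay a median of 39.5 bp apart, but 1 spacing stood out. At 221 of 3429 members the centres were 5.5 bp apart, the smallest spacing at which both can fit, while each spacing from 6.5 to 39.5 bp held 16 to 65 members. Those 221 members carried a fused match of 12 letters, TGANTCA followed by the reverse complement of GGAAGT with the A shared, which the Prss56 and Rab44 sequences above show. This search was added after the spacing had been seen. The fused letters were at 1.19% of members, 0.664% of distal JunB peaks without PU.1, 0.782% of all JunB peaks and 0.108% of distal PU.1 peaks without JunB. Of the 221 members with them, 32 lay in ORR1E and 9 in ORR1B1 LTR copies, so part of them share an ancestral sequence. With LPS in WT under TMM scaling their JunB was lower at 115 (52.0%, against 28.4% of all members and 19.6% of all JunB peaks) and higher at 17 (7.69%, against 13.5% and 17.6%), with a median of −0.49. The 3208 members with both matches but not the fused one shared part of this. Their JunB was lower at 1274 (39.8%) and higher at 395 (12.3%), with a median of −0.31. Under library totals JunB at the 221 members with the fused match was higher at 204 (92.3%, background 94.9%) and lower at 0 (background 0.0323%). At the Prss56 site JunB was 124 and 124 in untreated WT, 304 and 331 in WT with LPS, 79.3 and 92.5 in untreated KO, and 328 and 292 in KO with LPS.

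**Figure D4:**
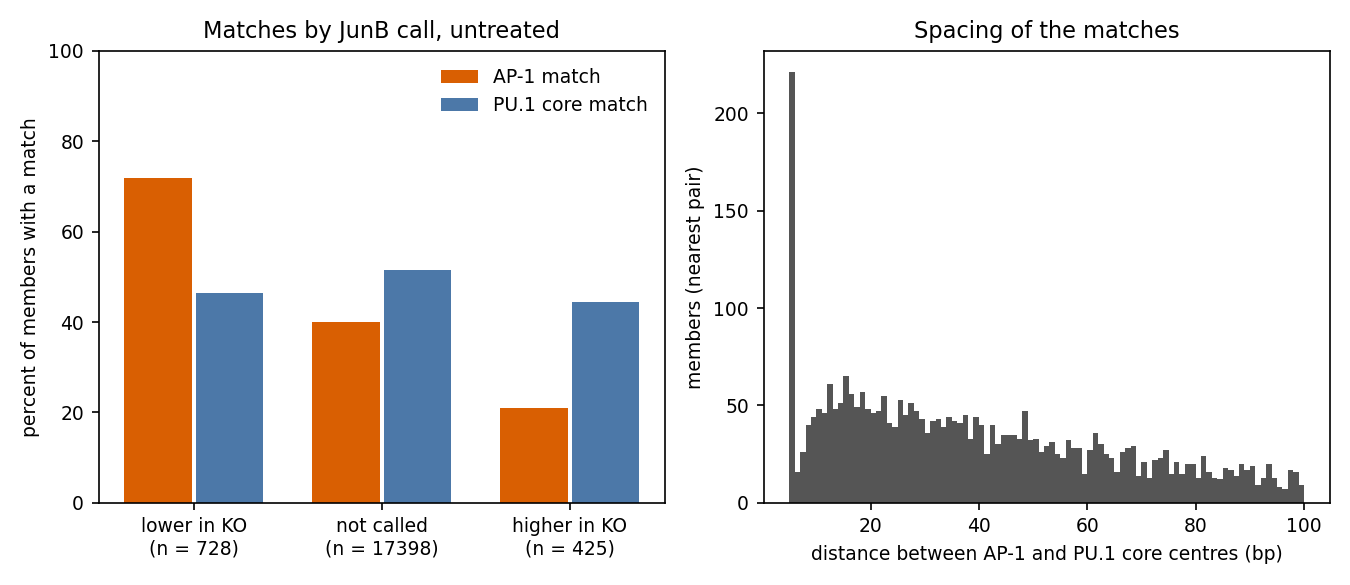
Left, percent of shared sites with an AP-1 match or a PU.1 core match within 100 bp of the JunB centre, by JunB call in untreated KO against WT. Right, number of shared sites by the distance between the centres of the nearest AP-1 and PU.1 core matches, with the bar at 5.5 bp holding 221 sites.

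The tables annotated 385 members to 106 of 133 genes in 7 lists of macrophage function. In KO with LPS, JunB was lower at 94 of the 385 (24.4%, background 13.8%) and higher at 38 (9.87%, background 13.1%) under TMM scaling. All members had 19.7% lower and 10.7% higher calls, and the median of −0.10 was near the −0.08 of all members. The median over all JunB peaks was 0.00. Under library totals JunB was lower at 150 and higher at 23 of the 385. Inflammatory cytokines and mediators (41 members near 13 genes) were the only list with more higher than lower calls, at 11 (26.8%) and 4 (9.76%) with a median of 0.05, which turned under library totals to 8 and 13 with a median of −0.10. Feedback regulators of signalling (67 members) had 3 higher and 23 lower (34.3%), AP-1 and other transcription factors (149) 16 (10.7%) and 37 (24.8%), macrophage receptors and identity genes (50) 5 and 13 (26%), lipid handling and cholesterol efflux (38) 3 and 10 (26.3%), and chemokines (24) 0 and 7 (29.2%). At the 16 members near interferon response genes neither JunB nor PU.1 was called in KO with LPS under TMM scaling, and under library totals JunB was lower at 1 and PU.1 at 5. With LPS in WT under TMM scaling, PU.1 was higher at 26 (63.4%, against 20.5% of all partners and 10.9% of all PU.1 peaks) and lower at 0 of the 41 cytokine members (median 0.71, against 0.18 over all partners and 0.00 over all PU.1 peaks), and under library totals higher at 6 and lower at 7. JunB there was higher at 20 (48.8%, against 13.5% of all members and 17.6% of all JunB peaks) and lower at 4 under TMM scaling (median 0.56), and at 41 and 0 under library totals. These counts are descriptions and were not tested as sets. Tnf, Cxcl2, Ccl7, Ptgs2, Atf3 and Cebpb had no member.

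Among the cytokines, the strongest Il1b member lay at chr2:129199037-129199475. JunB was 21.2 and 26.3 in untreated WT, 114 and 124 in WT with LPS, 15.9 and 22 in untreated KO, and 159 and 134 in KO with LPS. KO was above WT with LPS (log2 0.43 ± 0.09, adjusted p = 0.000213), and PU.1 was 134 and 111 in WT and 98.3 and 86.6 in KO, without a call. Il1b RNA was 32950 ± 5074 (SD, n = 4) in WT with LPS and 49190 ± 1909 in KO with LPS (log2 0.59, adjusted p = 0.000224). Without the fourth WT library the WT mean was 30570 ± 2103 (SD, n = 3) and the difference 0.69 (adjusted p = 1.38e-06, limma). At the Osm site, near the gene for the cytokine oncostatin M, JunB was 161 and 168 in WT with LPS and 187 and 172 in KO (log2 0.27, adjusted p = 0.00459), and PU.1 was 15.9 and 4.85 against 20.2 and 17.3 (log2 1.47, adjusted p = 0.00943). The JunB difference at Osm did not pass under library totals (log2 0.12, adjusted p = 0.242). Neither call at Osm held without the first WT library with LPS (adjusted p = 0.0505 for JunB and 0.0547 for PU.1), and the PU.1 value was 0.432 without the second. Osm RNA was 503 ± 62.5 in WT with LPS and 814 ± 29.0 in KO with LPS, and 472 ± 3.47 (SD, n = 3) in WT without the fourth library. Csf2, the gene for the growth factor GM-CSF, had JunB at 71.0 and 70.3 in WT with LPS and 92.8 and 116 in KO (log2 0.71 ± 0.13, adjusted p = 1.10e-05).

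Among transcription factors, Irf1, which drives interferon-type responses, lost both factors in KO with LPS. At chr11:53588282-53588549, in an intron of Irf1, JunB was 64.3 and 63.5 in WT with LPS and 21.1 and 21.2 in KO (log2 −1.37 ± 0.22, adjusted p = 1.13e-06). PU.1 was 38.6 and 32 in WT and 11.6 and 4.81 in KO (log2 −1.71 ± 0.41, adjusted p = 0.00138). Irf1 RNA was 1018 ± 36.2 (SD, n = 4) in WT with LPS and 503.5 ± 12.6 in KO with LPS (log2 −1.01, adjusted p = 8.98e-10, and −0.99 without the fourth WT library), so binding of both factors and RNA were lower together. The PU.1 call at Irf1 did not pass without the second KO library with LPS (adjusted p = 0.105). At the Jun site, at −53872 bp from the TSS of another AP-1 gene, the factors parted in untreated cells: JunB was 76.8 and 88.0 in WT and 40.9 and 41.6 in KO (log2 −0.68, adjusted p = 0.005), while PU.1 was 337 and 346 against 299 and 273. The PU.1 difference there was 0.31 under TMM scaling (adjusted p = 1.80e-05) and −0.25 under library totals, so its direction depends on the scale. The JunB call at Jun did not pass without either untreated WT library (adjusted p = 0.0554 and 0.0788). Jun RNA was 388 ± 11.2 in untreated WT and 899 ± 9.98 in untreated KO. At the Fos site, also of an AP-1 gene, JunB was 279 and 289 in WT with LPS and 186 and 189 in KO (log2 −0.44 ± 0.06, adjusted p = 2.10e-08), and Fos RNA was 779.5 ± 21.1 and 487 ± 11.1, with 773 ± 20.0 (SD, n = 3) in WT without the fourth library.

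Among feedback regulators, the site of Tnip3, an inhibitor of NF-kB signalling, had JunB at 126 and 111 in WT with LPS and 71.8 and 86.5 in KO (log2 −0.42 ± 0.12, adjusted p = 0.00593). PU.1 there was 55.6 and 76.7 in WT and 32.8 and 25 in KO (log2 −0.78 ± 0.20, adjusted p = 0.00519). Leaving out single LPS libraries gave an adjusted p of up to 0.149 for JunB and 0.263 for PU.1 at Tnip3. Tnip3 RNA was 5502 ± 557 (SD, n = 4) in WT with LPS and 2408 ± 77.5 in KO with LPS (log2 −1.19, adjusted p = 7.34e-10, and −1.13 without the fourth WT library). The Tnfaip3 site, of the gene for the deubiquitinase A20, had JunB at 262 and 257 in WT with LPS and 205 and 186 in KO (log2 −0.27, adjusted p = 0.000239). The Dusp1 site, of a MAP kinase phosphatase gene, had 239 and 262 against 181 and 171 (log2 −0.36, adjusted p = 4.51e-05). Among chemokines, the Ccl9 site parted the factors in untreated cells, with JunB at 38.1 and 37.8 in WT and 20.0 and 8.09 in KO (log2 −1.18 ± 0.29, adjusted p = 0.00586), and PU.1 at 40.6 and 44.8 in WT and 43.7 and 51.9 in KO (log2 0.69, adjusted p = 0.0159). The PU.1 difference at Ccl9 did not pass under library totals (log2 0.15, adjusted p = 0.539), and without the second untreated KO library neither factor passed (adjusted p = 0.227 for JunB and 0.203 for PU.1). The Ccl2 site held JunB at 303 and 338 in WT with LPS and 273 and 247 in KO (log2 −0.15 ± 0.05, adjusted p = 0.012), a call that did not pass without the second KO library with LPS (adjusted p = 0.28).

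Among receptor and identity genes, Gpnmb gained and Cd36 lost in untreated KO. Gpnmb encodes a transmembrane glycoprotein of lysosome-rich macrophages. At chr6:48972570-48972989, at −13738 bp from the TSS, JunB was 6.25 and 4.63 in untreated WT, 36.6 and 30.5 in WT with LPS, 12.5 and 10.4 in untreated KO, and 85.2 and 59.9 in KO with LPS. PU.1 was 18.8 and 12.6 in untreated WT, 9.07 and 11.7 in WT with LPS, 31.7 and 39.5 in untreated KO, and 13.5 and 21.2 in KO with LPS. KO was above WT for both factors in both states, with calls for JunB with LPS (log2 1.16 ± 0.18, adjusted p = 7.69e-07) and for PU.1 untreated (log2 1.63 ± 0.30, adjusted p = 1.10e-05). The JunB difference without LPS (log2 1.30, adjusted p = 0.0479) did not pass under library totals (adjusted p = 0.134) or without the second untreated WT library (adjusted p = 0.25). ATAC-seq signal was higher by 0.57 (adjusted p = 9.43e-10), and Gpnmb RNA was 2129 ± 71.1 (SD, n = 4) in untreated WT and 39170 ± 846 in untreated KO (log2 4.20, adjusted p = 3.65e-14).

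Cd36 encodes a scavenger receptor that takes up oxidised lipoproteins. At chr5:17385727-17386065, in an intron, JunB was 66.9 and 86.5 in untreated WT and 48.4 and 37.0 in untreated KO (log2 −0.50 ± 0.17, adjusted p = 0.0471), and PU.1 was 106 and 126 against 45.9 and 53.1 (log2 −0.66 ± 0.16, adjusted p = 0.00259). With LPS JunB was 224 and 226 in WT and 206 and 192 in KO, without a call, and ATAC-seq signal in untreated KO was lower by 0.28 (adjusted p = 0.0117). Without the second untreated KO library the JunB call at Cd36 did not pass (adjusted p = 0.375), nor the PU.1 call without the first (adjusted p = 0.165). Cd36 RNA was 2104 ± 103 (SD, n = 4) in untreated WT and 104 ± 15.0 in untreated KO (log2 −4.33, adjusted p = 1.68e-13). At the Fcgr1 site, of the gene for the high-affinity receptor for immunoglobulin G, both factors were lower in KO with LPS: JunB was 187 and 207 against 124 and 124 (log2 −0.50 ± 0.08, adjusted p = 3.91e-06), and PU.1 was 130 and 128 against 68.4 and 71.2 (log2 −0.47 ± 0.13, adjusted p = 0.00787). The PU.1 call at Fcgr1 did not pass without the first KO library with LPS (adjusted p = 0.103). Fcgr1 RNA was 7254 ± 563 in WT with LPS and 5200 ± 87.4 in KO with LPS, and 6986 ± 215 (SD, n = 3) in WT without the fourth library. RNA was measured after 6 hours of LPS and binding after 2 hours, so these values stand side by side and are not a matched time.

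**Figure D5:**
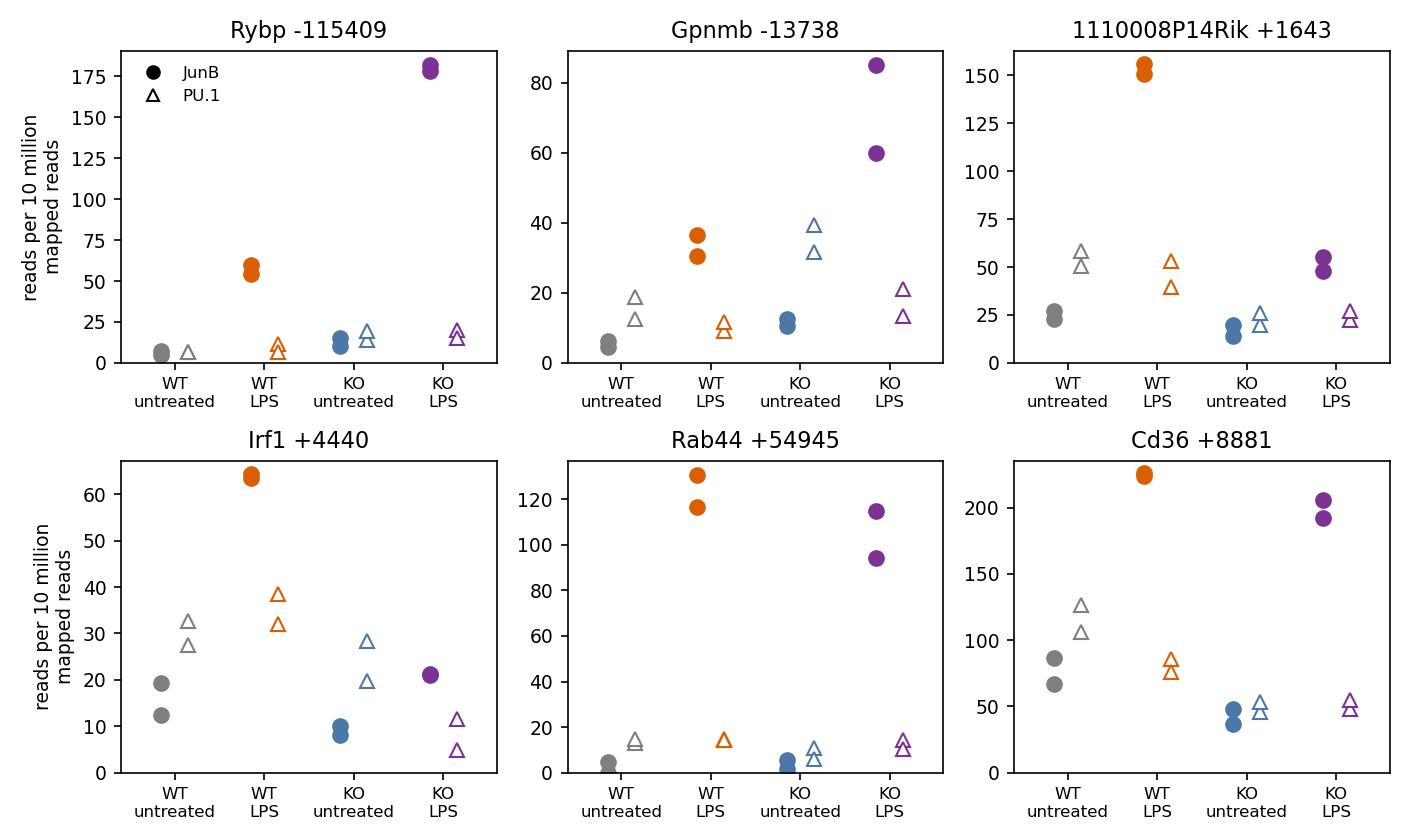
JunB (filled circles) and PU.1 (open triangles) signal in each of the 8 libraries per factor at 6 named shared sites, in reads per 10M mapped reads on linear axes from 0, by group. KO libraries with LPS are highest for JunB at the Rybp site (182 and 178) and low for both factors at the Irf1 site.

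A few members lie in repeats where reads from many copies can fall together. JunB was higher in untreated KO at 14 of the 15 members annotated as rRNA repeats, and the response to LPS was smaller in KO at 14 of them. At the Txndc11 site, which is among them, JunB was 45.6 and 40.9 in untreated WT, 155 and 175 in WT with LPS, 117 and 153 in untreated KO, and 98.6 and 92.6 in KO with LPS. PU.1 at the Txndc11 site was 38.6 and 50.6 in untreated WT, 238 and 212 in WT with LPS, 128 and 112 in untreated KO, and 139 and 150 in KO with LPS. Both factors were lowest in untreated WT and highest in WT with LPS at that site. At the Rab10os site, in a satellite repeat, JunB was 451 and 481 in untreated WT, 353 and 416 in WT with LPS, 435 and 629 in untreated KO, and 372 and 303 in KO with LPS. Its fitted log2 change with LPS in WT was −2.32 under TMM scaling and −0.29 per mapped read. The 15 rRNA and 4 satellite members are too few to move any count of JunB and PU.1 calls by 1.5 times. Leaving them out, a choice made after seeing the data, thus kept every count within that limit by construction and tests nothing.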

How the data were processed

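JunB and PU.1 ChIP-seq (8 libraries each), MED1 and RNA polymerase II ChIP-seq (4 each), RNA-seq (16) and ATAC-seq (6) tables were used. Per the file headers, the authors annotated peaks with HOMER on build mm9 without read adjustment, and values are deposited as reads per 10M mapped reads, a score that is no raw count; the JunB header gives no command line. The deposited ATAC-seq values are on a log2 scale whose transformation is not given in the sources used here. Bowtie2, HOMER, BWA, HISAT2, DESeq2, MACS2 and edgeR are named in the submitters' processing notes without roles. Each JunB or PU.1 region merges at least 4 peak calls, so sites called in the 2 libraries of only 1 group can be missing from both peak sets. No PU.1 region lists the first untreated KO library as a source of its call.

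Values were divided by TMM factors, or left per mapped read, and log2(value + 1) was fitted with limma 3.58.1 in R 4.3.3. ChIP-seq fits used voom precision weights, all libraries of a table in 1 fit, and RNA-seq and ATAC-seq fits used trend and robust moderation. A feature was tested when it had at least 10 reads, at median depth, in a number of libraries equal to the size of the smallest group, and 15 reads in all. P-values were adjusted by Benjamini-Hochberg over all features tested, with calls at 0.05. RNA means ± SD are TMM-scaled reads per 10M. The deposited values are not counts, but whole reads were recovered from the mapped totals, or in RNA-seq from the step between low values. These reads gave the TMM factors, the filter and the voom weights. The planned edgeR test was not run. The fits were tested on simulated data. Motifs were searched on both strands within 100 bp of JunB centres. Of the table columns, 8 held rescaled values per library for MED1 and polymerase II and were left out. Named sites were up to 3 members (JunB) or 2 (PU.1) per comparison and direction, with a mean of at least 50, a call, groups that did not overlap and 1 per nearest gene, plus the strongest member of each listed gene. The members, gene lists, markers and tests were chosen with earlier results of these data known. Nothing in the labels says that ChIP-seq or RNA-seq libraries came from separate cultures, so p-values measure the spread between these libraries, which may be technical.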

Additional observations from a re-analysis of the deposited data

Results flagged for a closer look

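The LPS response of JunB differed between KO and WT cells, by the test of the difference itself (limma, TMM scaling), at 6 named sites. The log2 difference of responses was 2.48 at the Tnc site, 2.28 at the Crlf3 site and 1.63 at the Dennd1a site, and −2.51 at the Txndc11 site, −2.44 at the Dleu2 site and −2.33 at the Zc3h3 site. At Crlf3 and Dennd1a the call did not pass without the first untreated KO library (adjusted p = 0.376 and 0.0988), and at Dleu2 not without the first untreated WT library (adjusted p = 0.0547). For PU.1 the difference of responses was 2.56 at the Dusp11 site, 2.38 at the Sec61b site, −2.27 at the Myom2 site and −2.20 at the Txndc11 site. The Txndc11 and Myom2 sites are annotated as rRNA repeats.

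Single RNA-seq libraries stood apart from the other 3 of their group for 5 genes, in deposited reads per 10M (not TMM-scaled). Cd14 was 28992 in the second KO library with LPS against 28381 to 28414 in the others, and Fcgr1 was 859.66 in the second untreated KO library against 875.53 to 875.64, so both gaps are small and the other 3 libraries lie close together. In the fourth WT library with LPS, Gpnmb was 578.67 against 894.37 to 906.02 and Osm 480.93 against 412.4 to 419.12. That library stood apart from its group over all genes (chi-square per gene of 98.6 to 138 in its pairs, 5.21 to 9.51 among the others). Tnip3 was 4247.2 in the first WT library with LPS against 4883.2 to 4943.2. These are 5 of 48 groups tested, and chance flags about 1 in 20 groups.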

How the results depend on the processing

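Under library totals, JunB was higher and lower in untreated KO at 150 and 2542 members, lower in KO with LPS at 6480, higher and lower with LPS in WT at 17591 and 9 and in KO at 17633 and 7, and had a larger and a smaller response in KO at 879 and 267. The same counts for PU.1 were 101 and 9696 in untreated KO, 183 and 6181 in KO with LPS, 536 and 9774 with LPS in WT, 860 and 6803 in KO, and 976 and 485 for the difference. MED1 gave 55 and 6820 and polymerase II 192 and 5959. ATAC-seq without trend or robust moderation gave 620 and 322. With 50 bp windows TGANTCA was at 33.5% and GGAAGT at 34.0% of members. Library totals reversed PU.1 in untreated KO at Cx3cr1 +9484 (−0.26), Jun (−0.25), Klf6 (−0.16), Spred1 (−0.14) and Fcgr2b (−0.17), and JunB in KO with LPS at Socs1 (−0.028). The cause was not tested.

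Leaving out 1 library leaves its group with 1, assumed to vary like the others. JunB counts, higher then lower, then ranged over 60 to 689 and 157 to 691 in untreated KO, 1176 to 2127 and 1909 to 3925 in KO with LPS, 1126 to 2813 and 3197 to 5540 with LPS in WT, 1295 to 2174 and 2265 to 3750 in KO, and 74 to 519 and 41 to 724 for the difference. PU.1 ranged over 455 to 1112 and 152 to 632, 186 to 749 and 233 to 843, 1966 to 3819 and 230 to 730, 1533 to 3244 and 571 to 1298, and 301 to 492 and 530 to 853 in the same order. MED1 ranged over 311 to 466 and 115 to 270, and ATAC-seq over 590 to 723 and 318 to 404. Of 112 site results, 58 kept their direction and call under all alternatives run. Median-of-ratios factors, an added value of 5 and no filter kept counts within 1.5 times. Same-numbered libraries did not deviate together (largest correlation 0.027 for JunB and 0.0291 for PU.1), and with a replicate block JunB was called higher and lower at 546 and 916 members in untreated KO and 1603 and 3077 in KO with LPS, all counts within 1.5 times. The edgeR alternative was not run.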
